A study of Mus musculus with 24 samples.

Results

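Irx1, Wif1, Mpped2, Cnn1 and Bcl2l15 are 5 of the 22088 genes tested in mouse liver, and they were chosen by their measured difference with the toxin fumonisin B1 (FB1), which was among the largest falls in liver. They were found by name among the array's probes, with 8 probes in all, of which 6 passed the filter on dim probes. In the order of called falls with FB1 in WT livers, Irx1 stood at 1, Cnn1 at 2, Bcl2l15 at 3, Mpped2 at 4 and Wif1 at 9 of 182. In the same order for KO livers, Wif1 stood at 7 and Irx1 at 8 of 5443. For that reason the values of all 5 genes with FB1 in WT livers, and those of Irx1 and Wif1 with FB1 in KO livers, are given as a description with no test.

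RNA came from the livers of female mice of a sv129/C57 background, 8 weeks old, with 1 array per mouse. FB1 is a mycotoxin of Fusarium moulds that inhibits ceramide synthases. The LXR receptors, encoded by Nr1h3 (LXRα) and Nr1h2 (LXRβ), are nuclear receptors for oxysterols, and the KO mice lacked both. The 4 groups of 6 mice were WT FB1 (10 mg/kg body weight of FB1 per day for 1 month), WT control (water for 1 month), KO FB1 (the same dose and time in KO mice) and KO control (water in KO mice). The labels state neither which part of the 2 receptor genes was removed nor in which cells.

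The 5 genes belong to separate families. Irx1 encodes a homeobox transcription factor of the Iroquois family, which patterns organs such as heart, lung and kidney during development. Wif1 encodes a secreted protein that binds Wnt ligands outside the cell and keeps them from their receptors; in liver, Wnt signalling is known for maintaining the gene programme of hepatocytes around the central vein. Mpped2 encodes a metallophosphoesterase. Cnn1 encodes calponin 1, an actin-binding protein of smooth muscle cells. Bcl2l15 encodes a member of the Bcl2 family, whose proteins promote or restrain cell death at mitochondria.

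Each value below is the log2 of a probe's processed signal minus the 75th percentile of that array, so that 0 is the level of a fairly bright spot and one unit is a doubling. A spot is called well above background where the scanner program marked it so. The figure following ± is the standard error of a log2 difference, unless SD is stated, and comes from 1 spread per gene over all 24 arrays. Across arrays 58.7% to 64.5% of the 59305 spots were well above background, the 75th percentile of the signal was 490 to 685, and the correlation between arrays within a group was 0.984 to 0.994. Each of the 3 slides held 2 arrays of every group. The deleted genes matched the labels: Nr1h3 averaged -4.33 in KO FB1 and -4.50 in KO control arrays, against 4.85 in WT FB1 and 4.95 in WT control arrays, and Nr1h2 averaged 0.504 and 0.531 in these KO groups, against 4.12 and 4.19 in the WT groups. All 12 hepatocyte markers, among them Alb and Apoa1, were well above background on 24 of 24 arrays. Precision is limited by the number of arrays, and p-values measure the spread between mice.

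The probes are shown here because 3 of the 5 genes have a pair of probes that do not give the same reading. Each probe is 60 bases long, and coordinates are those of the array files (mm9). The last 30 bases are printed, 5′ to 3′, except for 2 probes shown whole, and no part is marked with capitals. Exon and UTR annotation of that build was not used here.
Irx1, chr13:72095735-72095794, minus strand: agcgtgatttcagattgtaaatagcgcgtc
Wif1, chr10:120537079-120537138, plus strand: ctaagcgtgtctagcatgatggtatagatt
Mpped2, probe used, chr2:106707241-106707300, plus strand: atttttctaattataaactcacattctctg
Mpped2, second probe, chr2:106623955-106624014, plus strand, whole: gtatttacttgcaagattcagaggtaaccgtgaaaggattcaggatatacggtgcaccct
Cnn1, probe used, chr9:21913058-21913117, plus strand: tgtttgtggatgtgacagcagcgtttgtaa
Cnn1, second probe, chr9:21909945-21910166, plus strand, whole: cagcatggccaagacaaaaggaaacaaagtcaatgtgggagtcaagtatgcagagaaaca
Bcl2l15, probe used, chr3:103642494-103642553, plus strand: gggtgggcgattgatttctgacaattaaaa
Bcl2l15, second probe, chr3:103658440-103658499, plus strand: tctgttgaacaaactactggattttattgt
The second Cnn1 probe has 60 bases but covers 222 bases of the genome, so it reads across an intron. The Bcl2l15 probes belong to different transcript variants of that gene in the array's annotation.

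Irx1 was at background in every liver that received FB1, whichever genotype. In WT FB1 arrays its lowest value was -7.87, its median -7.73 and its highest -7.18, and in WT control arrays these were -7.42, -4.67 and -4.24. The probe was well above background on 0 of 6 WT FB1 arrays and on 5 of 6 WT control arrays. The remaining WT control array, replicate 2, read as low as the FB1 arrays, and the groups overlapped through it alone. Because WT FB1 arrays give only a bound, the fall is stated as at least 1.55-fold, with 1.38 to 2.14 when 1 array is left out. The fitted difference was -2.57 ± 0.36, and it was -3.04 ± 0.19 without WT control replicate 2.

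In KO livers Irx1 ranged from -7.94 to -7.58 with FB1 (median -7.88) and from -4.48 to -3.26 without (median -3.61). It was well above background on 0 of 6 KO FB1 arrays and on 6 of 6 KO control arrays, and the groups did not overlap. The level with FB1 was at least 4.35-fold lower, with 4.07 to 4.81 when 1 array is left out. The fitted difference of -4.06 ± 0.36 is smaller in size, -2.12, with dim values raised to each array's floor (the lowest signal among spots well above background) and -1.36 in the authors' deposited values. In a liver extract, fewer cells that express a gene and less RNA per cell cannot be told apart, here and for the genes below.

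Wif1 followed the same order, with a larger gap between KO livers and a smaller one between WT livers. In KO FB1 arrays its lowest value was -8.15, its median -8.04 and its highest -6.90, and in KO control arrays these were -4.19, -3.51 and -2.54. It was well above background on 0 of 6 KO FB1 arrays and on 6 of 6 KO control arrays, and the groups lay far apart. The fall was at least 5.66-fold, with 5.05 to 6.35 when 1 array is left out, and the fitted difference was -4.47 ± 0.37. It came to -2.50 with dim values at the floor and to -1.60 in the authors' deposited values.

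In WT livers Wif1 lay near background in both groups. WT FB1 arrays had a lowest value of -8.02, a median of -7.88 and a highest of -7.40, and WT control arrays had -7.33, -6.05 and -4.58. The probe was well above background on 0 of 6 WT FB1 arrays and on 2 of 6 WT control arrays, replicates 1 and 2. The values did not overlap, but no fold can be bounded above 1. The fitted difference of -1.73 ± 0.37 was -0.20 with dim values at the floor and -0.43 in the authors' deposited values.

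Mpped2 was lower with FB1 in both genotypes. In WT FB1 arrays its values ran from -6.14 to -5.12 (median -5.92), and in WT control arrays from -4.83 to -3.05 (median -3.56). The ranges did not overlap, and 1 of 6 WT FB1 arrays against 6 of 6 WT control arrays was well above background. The difference was -2.12 ± 0.32 as a description, and -0.98 in the authors' deposited values. In KO FB1 arrays the values ran from -7.00 to -5.45 (median -5.73), and in KO control arrays from -5.14 to -3.06 (median -4.24). These ranges did not overlap either, and 3 of 6 KO FB1 arrays were well above background. KO arrays did not enter the WT contrast, but the spread used in the fit also comes from WT arrays. The probe passed the filter on dim probes only through WT control and KO control arrays, where it was highest. With these limits, Mpped2 passed the test in KO livers at -1.73 ± 0.32 (limma adjusted p = 0.000192), which is rank 110 of the called falls. The value was -1.45 with dim values at the floor, -0.71 in the authors' deposited values and -0.46 with normexp background correction.

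The second Mpped2 probe gave a weaker reading in KO livers. It averaged -6.03 ± 0.59 in KO FB1 and -5.21 ± 0.82 in KO control arrays (SD, n = 6 each), and was well above background on 2 and 4 arrays. Its difference of -0.82 ± 0.41 did not pass the test over 33417 probes (limma adjusted p = 0.118). In WT livers it averaged -6.89 ± 1.04 with FB1 and -5.02 ± 0.45 without (SD, n = 6 each), on 0 and 6 arrays well above background. The mean of both Mpped2 probes was at -1.28 ± 0.32 in KO livers (limma adjusted p = 0.00267). It contains the probe used, so it is no separate support. The second probe passed the filter on dim probes only through WT control arrays, where it was highest.

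Cnn1 was lower with FB1 in WT livers, and in KO livers the difference did not pass the test. WT FB1 arrays had a lowest value of -7.04, a median of -5.55 and a highest of -4.31, and WT control arrays had -4.01, -3.18 and -0.51. The ranges did not overlap, and WT control replicate 4 stood far above the other WT control arrays. The difference was -2.55 ± 0.52, and -2.06 ± 0.44 without that array. In KO FB1 arrays Cnn1 ran from -5.16 to -3.95 (median -4.77), and in KO control arrays from -5.61 to -3.22 (median -4.22), so that these groups overlapped. The difference in KO livers was -0.46 ± 0.52 (limma adjusted p = 0.515), with a 95% interval from -1.53 to 0.62. By slide it was -0.86, 0.57 and -1.07.

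The Cnn1 signal rests on 1 probe. The intron-spanning probe was well above background on 0 of 24 arrays, with group means between -7.76 in WT FB1 and -7.29 in WT control arrays, and so could not be tested.

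Bcl2l15 was lower with FB1 in WT livers and had its highest levels in KO livers. WT FB1 arrays had a lowest value of -5.66, a median of -4.75 and a highest of -2.40, and WT control arrays had -4.13, -2.01 and -0.39. The groups overlapped: WT FB1 replicate 1 stood well above the other WT FB1 arrays, and WT control replicate 1 was the lowest of its group. The difference was -2.38 ± 0.48, and -2.80 ± 0.41 without WT FB1 replicate 1. In KO FB1 arrays the values ran from -1.84 to -0.65 (median -1.28), and in KO control arrays from -0.60 to -0.28 (median -0.45). All KO FB1 values lay below all KO control values, yet the difference of -0.86 ± 0.48 did not pass the test (limma adjusted p = 0.155; 95% interval -1.84 to 0.13).

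That Bcl2l15 test depends on whose spread it uses. The SD was 0.47 in KO FB1 and 0.12 in KO control arrays, and 1.1 in WT FB1 and 1.27 in WT control arrays, and all 4 groups share 1 spread in the fit. With only the 2 KO groups fitted the same difference passed (-0.86 ± 0.18, limma adjusted p = 0.00248), as it did with normexp background correction (-0.71 ± 0.28, adjusted p = 0.046). The second Bcl2l15 probe was well above background on 1 of 24 arrays, a KO control array, and was not tested.

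**Figure D1:**
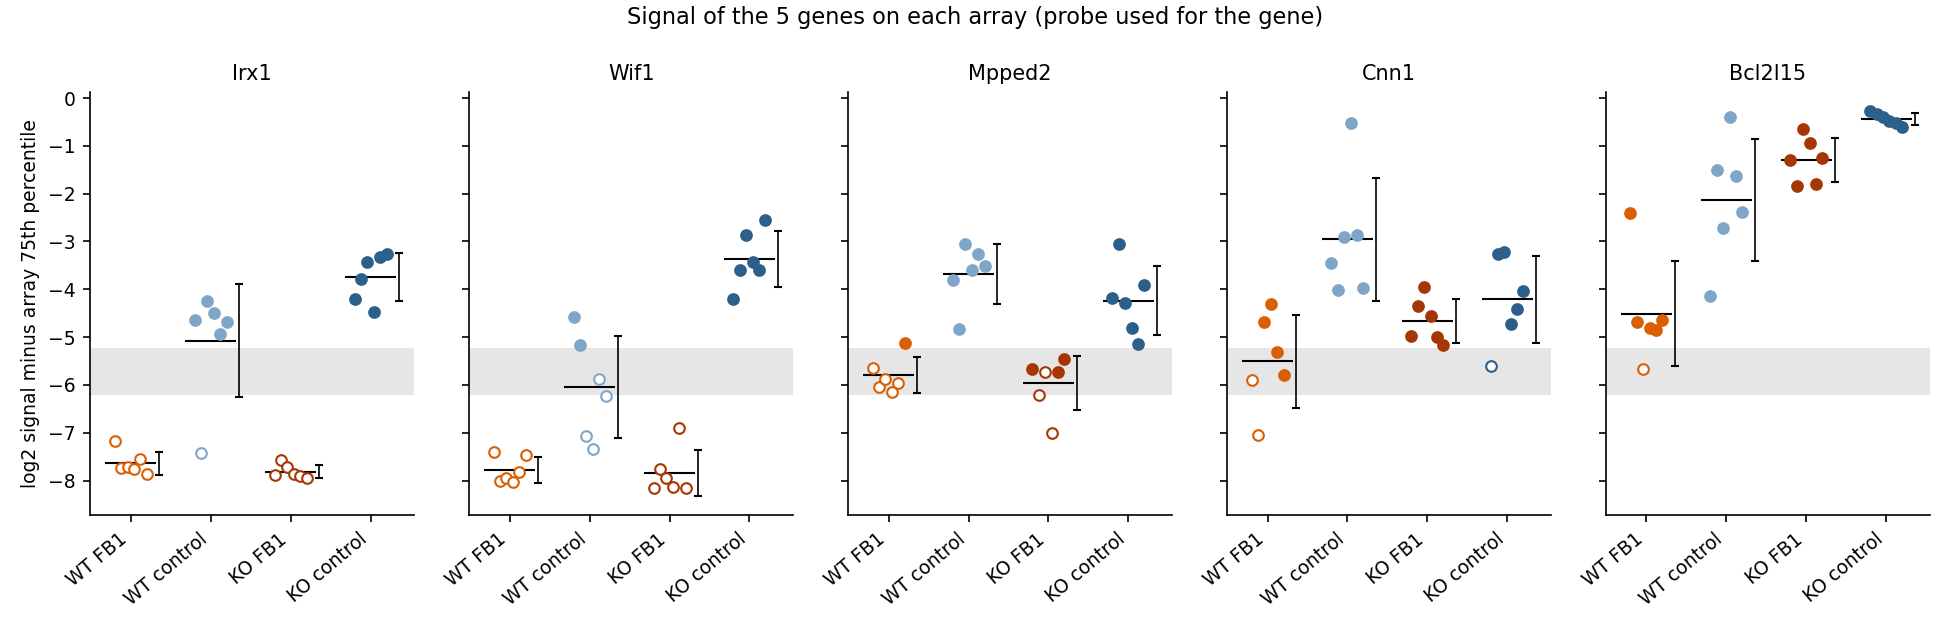
Signal of the probe used for each of the 5 genes, as log2 minus the array's 75th percentile, on 6 arrays in each of the 4 groups; filled points are well above background, open points are not, lines are means, bars are SD and the grey band is the range of array floors (-6.18 to -5.25). Irx1 and Wif1 lie under the band on every FB1 array, and Bcl2l15 in KO control arrays lies between -0.60 and -0.28.

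Set side by side, the FB1 differences came to -2.57 in WT and -4.06 in KO livers for Irx1, and to -1.73 and -4.47 for Wif1. They came to -2.12 in WT and -1.73 in KO livers for Mpped2, to -2.55 and -0.46 for Cnn1, and to -2.38 and -0.86 for Bcl2l15. The KO minus WT difference of the FB1 effects was -1.50 ± 0.50 for Irx1, -2.74 ± 0.52 for Wif1, 0.39 ± 0.45 for Mpped2, 2.10 ± 0.74 for Cnn1 and 1.52 ± 0.67 for Bcl2l15. These are given without a test because they contain the contrasts that chose the genes, and for Irx1 and Wif1 both FB1 groups were at background. For these 2 genes the value follows the gap between KO control and WT control arrays, 1.32 for Irx1 and 2.67 for Wif1. No stronger effect of FB1 in KO livers is read from it. The slides split the same arrays, on which the genes were chosen in WT livers, so they are no separate check. All 5 genes were lower with FB1 on each of the 3 slides in WT livers. In KO livers Irx1, Wif1, Mpped2 and Bcl2l15 were so on each slide, and Cnn1 on 2 slides. The share of all genes with that pattern was not counted, and nothing is read from it.

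Over all genes, 0.824% were called lower and 2.06% higher with FB1 in WT livers, and 1.03% had WT FB1 values all below WT control values. With FB1 in KO livers, 24.6% were called lower and 16.5% higher, and 9.48% had KO FB1 values all below KO control values. Of the 3 genes not picked for KO livers, 1 was called lower, Mpped2, and 2 had groups that did not overlap, Mpped2 and Bcl2l15. A count of 1 in 3 is close to the 24.6% of all genes and is no result about these genes. The median difference of all genes was -0.03 with FB1 in WT and -0.08 in KO livers.

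The order of the 5 genes against others is a description. In WT livers Adgrg2 (-2.12 ± 0.37) followed Mpped2, and Slc22a3 (-1.85 ± 0.32) and Vldlr (-1.66 ± 0.29) stood on either side of Wif1. In KO livers C430042M11Rik (-4.61 ± 0.32) preceded Wif1.

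The genotypes were compared next, which asks whether loss of the LXRs goes with other levels of these genes. Each of these comparisons uses arrays of the FB1 contrasts on which the genes were chosen. Irx1 and Wif1 also passed the filter on dim probes only through KO control arrays, the group in which they were highest. The genotype differences of the 5 genes are therefore given as a description, with no test. In the fit over all genes 3 of the 5 were on the called side without FB1, Irx1, Wif1 and Bcl2l15, all higher in KO livers, where 7.21% of all genes were called higher and 8.02% lower, and nothing is read from that count.

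Wif1 was higher in KO control than in WT control arrays. Its KO control values, -4.19 to -2.54, all lay above its WT control values, -7.33 to -4.58, a pattern that 3.61% of genes showed. The difference was 2.67 ± 0.37. With dim WT arrays at the floor it was 2.13, in the authors' deposited values 1.13 and with normexp background correction 0.77. By slide it was 2.29, 3.84 and 1.90.

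Irx1 differed by 1.32 ± 0.36 between KO control and WT control arrays, and the groups overlapped. Without WT control replicate 2, the array at background, the difference was 0.85 ± 0.19. By slide it was 2.80, 0.63 and 0.53, with the background array on slide 1. It was 0.68 in the authors' deposited values and 0.34 with normexp background correction.

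Bcl2l15 had higher values in KO livers both without and with FB1. Without FB1 the difference was 1.69 ± 0.48, and WT control replicate 4, at -0.39, lay within the KO control range. With FB1 it was 3.21 ± 0.48, and all KO FB1 arrays, -1.84 to -0.65, lay above all WT FB1 arrays, -5.66 to -2.40, the low group for which the gene was chosen. The size depends on the processing: the difference with FB1 was 2.21 ± 0.33 in the authors' deposited values and 1.71 ± 0.28 with normexp background correction. By slide it was 3.43, 2.75 and 3.45.

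With FB1, 14.5% of all genes were called higher and 18.3% lower in KO livers, and 7.06% had KO FB1 values all above WT FB1 values. Bcl2l15 was on the called side, 1 of the 3 genes that could be compared. For Mpped2 the difference was -0.17 ± 0.32 with FB1 (95% interval -0.83 to 0.49) and -0.56 ± 0.32 without (-1.22 to 0.10). For Cnn1 it was 0.84 ± 0.52 with FB1 (95% interval -0.24 to 1.92) and -1.26 ± 0.52 without (-2.33 to -0.18). The Cnn1 difference without FB1 leaned on WT control replicate 4: it was -0.77 when that array was left out. By slide it was -0.37, -3.11 and -0.28. These intervals are not adjusted for the number of genes. Irx1 and Wif1 were at background on all KO FB1 and WT FB1 arrays, so no fold between them can be given.

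**Figure D2:**
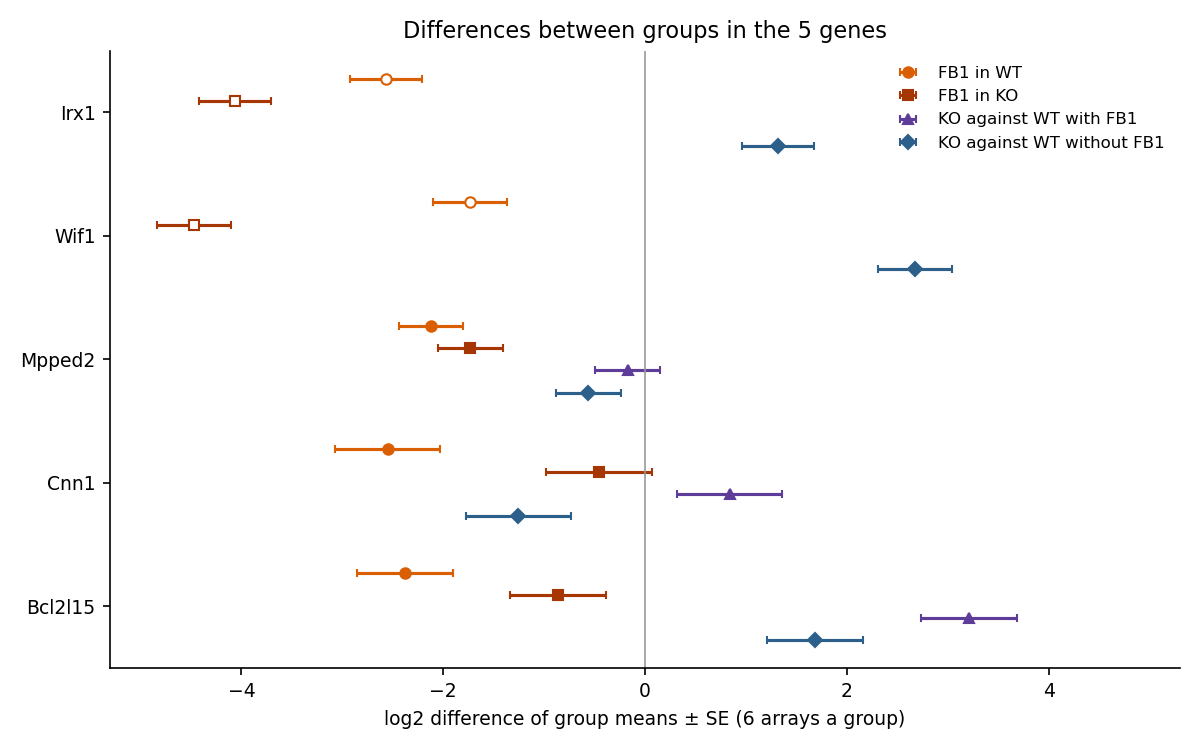
Log2 differences of group means with standard errors for the 5 genes in the 4 comparisons of 6 arrays a group; open markers stand for differences against a group at background, where the point depends on the dim signal. Wif1 and Irx1 have no marker for KO against WT with FB1, since both groups were at background, and Bcl2l15 with FB1 stands at 3.21.

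**Figure D3:**
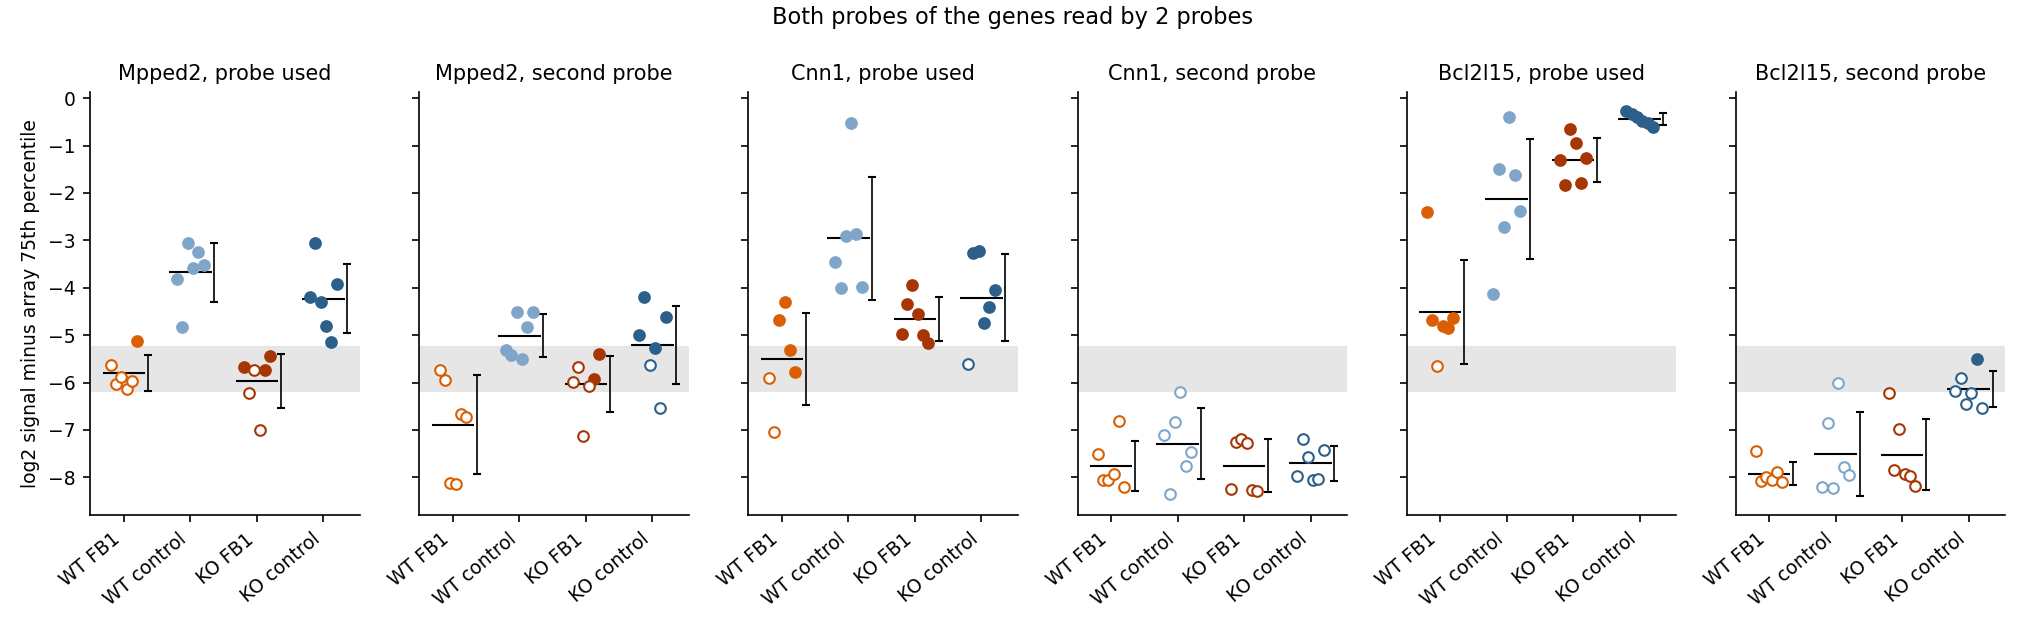
Signal of both probes of Mpped2, Cnn1 and Bcl2l15, as log2 minus the array's 75th percentile, on 6 arrays a group; filled points are well above background, lines are means and bars are SD. The second Cnn1 probe has no filled point, and the second Bcl2l15 probe has 1.

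Each gene was set beside the family or pathway it belongs to, leaving out the gene itself. Over all genes, 2.06% were called higher and 0.824% lower with FB1 in WT livers, and 16.5% and 24.6% in KO livers. In WT livers 3990 of 22088 genes had an unadjusted limma p under 0.05. Counts near these shares are no result about a family. Of the other 5 Iroquois genes, Irx4 was the 1 tested, and it differed by 0.14 ± 0.17 with FB1 in WT (limma adjusted p = 0.715) and by 0.12 ± 0.17 in KO livers (limma adjusted p = 0.607). Irx2 and Irx5 were well above background on 0 of 24 arrays. Irx3 reached 13 arrays but no whole group.

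Among 9 tested Wnt antagonists other than Wif1, 2 rose with FB1 in WT livers and the rest did not pass. Dkk3, a Dickkopf family member, rose by 0.93 ± 0.21 (limma adjusted p = 0.0141), and Frzb, a secreted frizzled-related protein that binds Wnts, by 0.67 ± 0.17 (limma adjusted p = 0.0303). In KO livers the same pair rose, Frzb by 1.81 ± 0.17 (limma adjusted p = 7.67e-08) and Dkk3 by 1.30 ± 0.21 (limma adjusted p = 4.93e-05). Nkd2, an intracellular inhibitor, fell there by 0.59 ± 0.17 and Kremen1, a Dickkopf receptor, by 0.20 ± 0.07. The median of the 9 was 0.14 in WT and 0.08 in KO livers, and the median of all genes -0.03 and -0.08.

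Of 27 tested Wnt ligands, receptors and secretion factors, none passed the limma test with FB1 in WT livers, while 3 had an unadjusted p under the threshold of 0.05. In KO livers 4 rose and 2 fell, where 16.5% of all genes were called higher and 24.6% lower, and nothing is read from these counts. Porcn, the acyltransferase that Wnt secretion needs, fell by 0.80 ± 0.08 and Lgr4, an R-spondin receptor, by 0.86 ± 0.14. Fzd2, a Wnt receptor, rose by 1.31 ± 0.30 in KO livers and was at 0.90 ± 0.30 in WT livers (limma adjusted p = 0.106).

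Of 19 Wnt target genes of liver or other tissues, some of which are also in the lists above, 1 rose with FB1 in WT livers, Ccnd1 (cyclin D1), by 1.20 ± 0.25 (limma adjusted p = 0.00632). In KO livers 3 rose and 6 fell, where 16.5% of all genes were called higher and 24.6% lower. Slc1a2, a glutamate transporter, fell by 5.23 ± 0.46, Oat, ornithine aminotransferase, by 2.72 ± 0.28, and Glul, glutamine synthetase, by 2.13 ± 0.28. These genes have known high levels around the central vein. They were picked as the largest falls of the list, so nothing is read from them about other genes of that zone. Those that rose were Ccnd1 (2.06 ± 0.25), Myc (1.44 ± 0.31) and Tcf7 (1.06 ± 0.19), genes of proliferation and Wnt-driven transcription. Axin2, a general target, was at 0.39 ± 0.34 and did not pass (limma adjusted p = 0.374). The median of the 19 was 0.14 in WT and -0.33 in KO livers.

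Of 3 tested relatives of Mpped2, none passed with FB1 in WT livers, and 0 had an unadjusted p under 0.05 in limma. In KO livers Cpped1, a related phosphatase, fell by 0.30 ± 0.09, and Mpped1, the closest paralog, was at -0.48 ± 0.22 (limma adjusted p = 0.0802).

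Of the other 2 calponins, Cnn2 rose by 0.53 ± 0.14 and Cnn3 fell by 0.22 ± 0.08 with FB1 in KO livers, while in WT livers Cnn2 was at 0.01 ± 0.14 and Cnn3 at -0.13 ± 0.08, and 0 had an unadjusted p under 0.05 in limma. Of 15 tested smooth muscle genes besides Cnn1, none passed limma's test in WT livers. There 5 had an unadjusted limma p under 0.05, with Synm, an intermediate filament protein, nearest at 0.54 ± 0.15. In KO livers 5 rose and 3 fell, where 16.5% of all genes were called higher and 24.6% lower. Tagln, an actin-binding smooth muscle protein, rose there by 1.46 ± 0.18 and Csrp1 by 1.03 ± 0.15, and Hspb6, a small heat shock protein, fell by 0.62 ± 0.10. Acta2, smooth muscle actin, was at -0.14 ± 0.13 in WT and 0.06 ± 0.13 in KO livers, and Myh11, smooth muscle myosin, at -0.41 ± 0.17 and 0.12 ± 0.17. The summed linear signal of the 15 genes was 80.9 to 92.9 in WT FB1 and 78.7 to 88.2 in WT control arrays, and 76.4 to 110 in KO FB1 and 78.4 to 85.2 in KO control arrays, in units of the 75th percentile.

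Among 20 tested Bcl2 family genes besides Bcl2l15, 1 rose with FB1 in WT livers, and in KO livers 7 rose and 1 fell. Of all genes, 16.5% were called higher and 24.6% lower in KO livers. Bok, an effector of cell death, rose by 0.36 ± 0.10 in WT livers (limma adjusted p = 0.0417) and by 1.02 ± 0.10 in KO livers (limma adjusted p = 8.06e-08). Bax, another effector, rose by 0.69 ± 0.08 in KO livers, and Bcl2a1d, one of several near-identical copies that its probe may not tell apart, by 1.42 ± 0.21. Bnip3 was the 1 that fell there, by 1.09 ± 0.18. The median of the 20 was 0.02 in WT and 0.11 in KO livers. Bcl2l15, at -2.38 and -0.86, was chosen for its fall with FB1, so its distance from that median is no result.

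**Figure D4:**
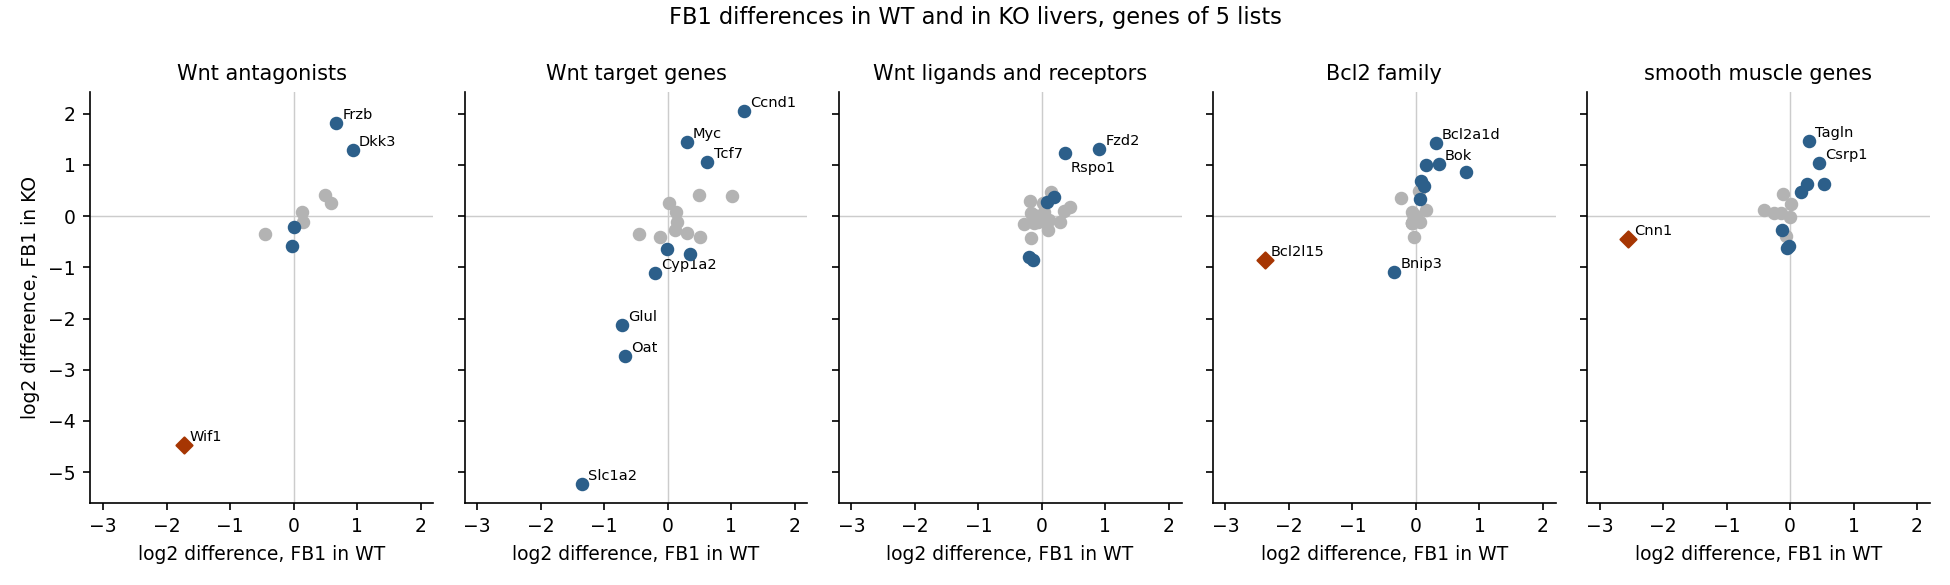
FB1 differences in WT livers (horizontal) and in KO livers (vertical), as log2, for the tested genes of 5 lists; diamonds are the genes described here, blue points passed the test in KO livers and grey points did not. Wif1 is at -1.73 and -4.47, and Slc1a2 is the lowest Wnt target at -5.23. The diamonds were chosen for their falls with FB1, so their distance from the other genes is no result.

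Markers of other cell types were read on the same arrays. Over all genes, 2.06% were called higher and 0.824% lower with FB1 in WT livers. An unadjusted limma p under 0.05 was found there for 3990 of 22088 genes. With FB1 in WT livers, 3 of 13 stellate cell and fibroblast markers rose, and no marker of hepatocytes (12 tested), cholangiocytes and gallbladder (8), gut epithelium (6), pancreas (5), fat (4), mesothelium (6), sinusoidal endothelium (10), resident macrophages (8) or lymphocytes (6) passed. In limma an unadjusted p under 0.05 was found for 6 endothelial and 3 hepatocyte markers, for 1 marker each of cholangiocytes, gut, mesothelium and lymphocytes, and for 0 of pancreas, fat and resident macrophages. The summed signal of the endothelial markers was 38.3 to 73.5 in WT FB1 and 60.1 to 82.5 in WT control arrays. Detection within the gut and pancreas lists was mixed. Gkn2, Reg3g, Cdx2 and Muc2 of the gut list and Pnlip, Cpb1 and Pnliprp1 of the pancreas list were well above background on 0 of 24 arrays. Lgals4, Muc5ac, Fabp2 and Vil1 of the gut list were so on 24 of 24. The same held for Cela2a, Ctrb1, Cel, Amy2a5 and Clps of the pancreas list.

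In KO livers with FB1, 7 of 13 stellate and 4 of 6 mesothelial markers rose. Those that fell were 7 of 10 endothelial, 6 of 12 hepatocyte and 3 of 5 pancreas markers. In that comparison 16.5% of all genes were called higher and 24.6% lower. Counts near such shares, here and below, are no result about a cell type. The stellate sum was 126 to 152 in KO FB1 and 86.7 to 108 in KO control arrays, the endothelial sum 28.5 to 41.8 and 45.0 to 71.2, and the hepatocyte sum 2940 to 4400 and 3770 to 4520. Among the other lists in KO livers, 1 marker each of cholangiocytes and gut and 2 of lymphocytes rose, 1 lymphocyte marker fell, 1 fat marker rose and 1 fell, and 1 of 8 resident macrophage markers rose and 2 fell. Without FB1, 8 of 8 resident macrophage markers were lower in KO livers, with a median difference of -2.52 and a sum of 10.4 to 17.8 in KO control against 51.7 to 159 in WT control arrays. In that comparison 2 stellate markers were higher and 2 lower, 1 gut marker was higher and 2 lower, and 1 endothelial marker was higher. Lower as well were 2 lymphocyte markers and 1 pancreas marker. Of all genes, 7.21% were called higher and 8.02% lower in KO livers without FB1. With FB1, 7 of 8 resident macrophage markers (median -2.96) and 6 of 10 endothelial markers were lower in KO livers, and 7 of 13 stellate markers were higher and 2 lower. Some hepatocyte (3 of 12), pancreas (2 of 5) and lymphocyte (2 of 6) markers were also lower there. Some cholangiocyte (3 of 8) and fat (1 of 4) markers were higher, and 1 gut marker was higher and 1 lower. Of all genes, 14.5% were called higher and 18.3% lower in KO than in WT livers with FB1. The part of these cell types in the levels of Irx1, Wif1, Mpped2, Cnn1 and Bcl2l15 was not tested.

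Among themselves the 5 genes followed different patterns over the 24 arrays. The highest Pearson correlations were 0.84 between Irx1 and Wif1 and 0.81 between Irx1 and Mpped2, and the lowest was 0.24 between Cnn1 and Wif1. Deviations from the group means correlated at -0.23 for Irx1 and Wif1 and at 0.44 for Irx1 and Mpped2. The arrays share their groups, and for dim genes the deviations hold mostly background, so these values are a description.

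The genes most alike to each one over the 24 arrays were found across all tested genes. Irx1 was nearest to Gsto2 (0.89), Tmem38a (0.89) and Mcat (0.88), and Wif1 to 1700029J07Rik (0.89), 6330526H18Rik (0.88) and Gna14 (0.86). Gsto2, a glutathione transferase of the omega class, had an FB1 difference of -0.62 in WT and -1.91 in KO livers, and Gna14, a G protein subunit, of -0.68 and -1.41. Mpped2 was nearest to Mrpl15 (0.89), Gga2 (0.88) and Tspyl4 (0.87), whose FB1 differences in WT livers were -0.38, -0.39 and -0.71. Deviations from group means correlated at 0.61 to 0.68 for these 3, while for the 3 nearest to Wif1 they lay between -0.21 and 0.33.

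Cnn1 was nearest to Pgm5 (0.84), Rasgrf2 (0.78) and Col13a1 (0.77). Pgm5 encodes a protein related to phosphoglucomutase that is known from muscle cell junctions, and its FB1 difference was -0.90 in WT and -0.48 in KO livers. WT control replicate 4 was high for all 4 genes, and the correlation of deviations from group means was 0.79 for Pgm5. Bcl2l15 was nearest to Plrg1 (0.89), Atf6 (0.86) and Prdx3 (0.85), with small FB1 differences between -0.31 and -0.08 in either genotype.

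**Figure D5:**
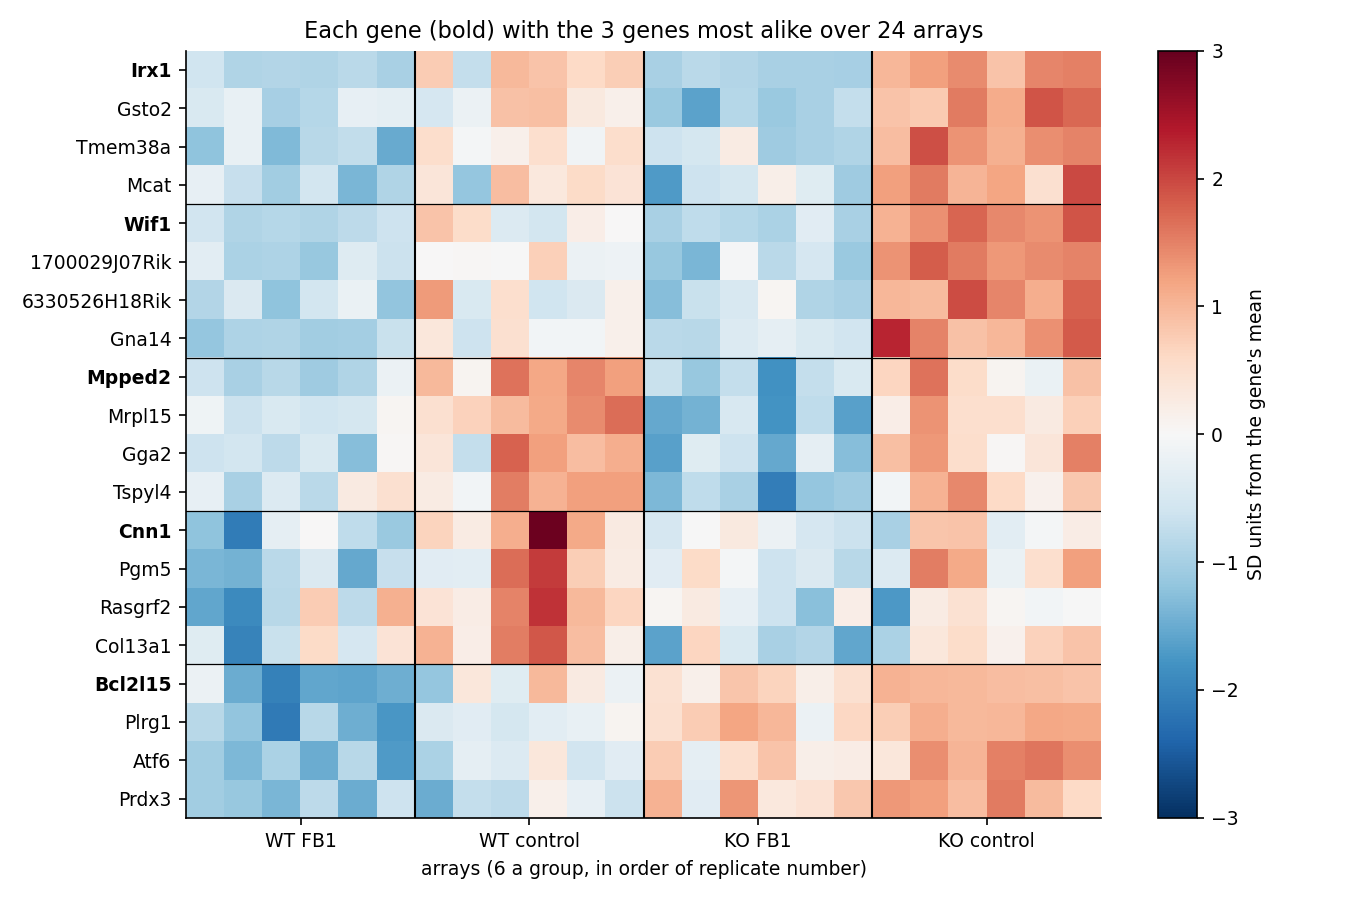
Signal of each gene (bold) and of the 3 genes with the highest correlation to it over 24 arrays, as SD units from the gene's own mean, with arrays in 4 groups of 6. Colours stop at 3 SD. Irx1, Wif1 and their neighbours have their highest group mean in KO control arrays, and the Cnn1 block is highest in WT control replicate 4.

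The stretches before the transcription start were compared because the 5 genes were all chosen for a fall with FB1. RefSeq promoter sequences of the GRCm38.p6 assembly were matched by symbol for 4 of the 5 genes, with 6 starts, and the 250 bases before each start were searched on both strands. Of 32851 promoters of the same length, 12.4% held the TATA box TATAAA. The CCAAT box was held by 33.8%, and the GC box GGGCGG by 32.7%. The nuclear receptor half-site AGGTCA was found in 14%. The core CTTTGA of TCF/LEF sites, through which Wnt signalling acts, was found in 13.8%, and the CArG box of smooth muscle genes in 1.5%. None of the motifs overlapped another in the stretches of these genes, and the CArG box had 0 matches there. The stretches printed are those of genes with 1 start in the table. Capitals mark the motifs, some of them on the opposite strand.
Wif1, chr10:121033754-121034003, plus strand: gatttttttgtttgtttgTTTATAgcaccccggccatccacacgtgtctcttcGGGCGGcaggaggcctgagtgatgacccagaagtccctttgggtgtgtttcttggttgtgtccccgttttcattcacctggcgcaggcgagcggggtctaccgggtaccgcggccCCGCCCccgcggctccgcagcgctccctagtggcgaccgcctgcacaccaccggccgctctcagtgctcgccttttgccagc
Cnn1, chr9:22099003-22099252, plus strand: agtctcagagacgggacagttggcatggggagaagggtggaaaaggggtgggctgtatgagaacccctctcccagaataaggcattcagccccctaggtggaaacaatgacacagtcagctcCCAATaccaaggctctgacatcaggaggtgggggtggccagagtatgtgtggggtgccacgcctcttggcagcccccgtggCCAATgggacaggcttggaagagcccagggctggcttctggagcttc
Bcl2l15, chr3:103832446-103832695, plus strand: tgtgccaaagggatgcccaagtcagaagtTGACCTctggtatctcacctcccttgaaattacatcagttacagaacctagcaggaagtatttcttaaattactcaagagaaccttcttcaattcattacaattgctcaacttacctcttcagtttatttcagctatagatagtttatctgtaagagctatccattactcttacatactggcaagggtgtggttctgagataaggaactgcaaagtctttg
The Wif1 stretch held GGGCGG at 2 places and TATAAA on the opposite strand. The Cnn1 stretch held CCAAT at 2 places. The Bcl2l15 stretch held AGGTCA on the opposite strand. The 3 Mpped2 starts each held GGGCGG, and one of them also CTTTGA. No motif was shared by all 4 genes. GC content was 62.8% for Wif1, 59.2% for Cnn1 and 38.8% for Bcl2l15, against a median of 52.4% over all promoters, and the Bcl2l15 stretch held 0 CpG dinucleotides against 21 for Wif1. A match is a description of letters, and no binding was measured here.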

How the data were processed

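Liver RNA of 24 mice was measured on 1-colour Agilent arrays. Per the file headers, the authors' scanner program (Agilent Feature Extraction 10.10.1.1) gave each spot a processed signal intensity, background-subtracted and detrended within the array, and the deposited files hold that intensity with no normalization between arrays. The deposited table of log2 values is the authors' own, and the submitters' processing notes name limma. How it was filtered and background-corrected is not stated in the labels.

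Here the processed signal was put on a log2 scale and each array's 75th percentile subtracted. Outlier spots (64 to 121 an array) were set to missing and spots of a probe averaged. A probe was tested if well above background on every array of at least 1 group with at least 4 values in each group (33417 of 56605 probes), and where several probes of a gene were tested the one of highest mean stood for it (22088 genes). Probes were named through RefSeq accessions (32994 probes) or by the file's own name. Groups were compared with limma 3.58.1 in R 4.3.3 (data.table version 1.17.8), all 24 arrays in 1 fit, with Benjamini-Hochberg adjustment, called at adjusted p under 0.05; figures used Python 3.11.15 and matplotlib 3.10.9. The fit was tested on simulated data. Where no array of a group was well above background, the fold is a bound: the mean of the brighter group is set against the dim group, each dim array taken at its floor or its own signal, whichever is higher.

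The 5 genes and all gene lists were chosen with earlier results of these data known. Named genes were the 5 genes, the 3 most alike to each by Pearson r, their neighbours in the order of falls, and in each list up to 3 called genes of smallest p in each FB1 comparison, or the 1 of smallest p where none was called. Irx2, Irx3, Irx5, Mpped1, Kremen1, Glul, Myc, Tcf7, Axin2, Acta2, Myh11, Bnip3 and the marker genes were named after their values were seen. The fixed design would have tested Irx1 in KO livers; it is given as a description because it ranks among the largest falls there, as are the genotype differences of the 5 genes, which share arrays with the contrasts that chose them. Alternatives were other normalization and background steps, the authors' values, other filters, slide or replicate number as a block, subsets of arrays and a 1.5-fold threshold.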

Additional observations from a re-analysis of the deposited data

Results flagged for a closer look

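A sample stood far from the rest of its group, by the gap to its nearest neighbour over the range of the group, in 4 of the 20 gene and group combinations examined, and chance gives about 1 in 20. Irx1 in WT control arrays was -7.42 in replicate 2, against -4.94 in the next lowest array. Wif1 in KO FB1 arrays was -6.90 in replicate 5, against -7.76 in the next highest, both not well above background. Cnn1 in WT control arrays was -0.51 in replicate 4, against -2.87. Bcl2l15 in WT FB1 arrays was -2.40 in replicate 1, against -4.65.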

How the results depend on the processing

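No paired effect was assumed: samples of the same replicate number deviated together at -0.08 to 0.24 with FB1 in WT, -0.17 to 0.06 in KO, -0.06 to 0.06 between control and -0.20 to 0.17 between FB1 groups. With the replicate block, 552 genes were called for FB1 in WT, 8912 for FB1 in KO, 3190 between genotypes without FB1 and 6994 with FB1, against 638, 9097, 3363 and 7246 with no block, and no call of the 5 genes changed. On slides 1, 2 and 3 alone, with 2 arrays a group, the counts were 7, 33 and 0 for FB1 in WT (1811 genes at an unadjusted p under 0.05 on slide 3), 1971, 305 and 4905 for FB1 in KO, 724, 424 and 885 for the genotypes without FB1 and 1615, 705 and 4162 with FB1. Requiring 1.5-fold left 417, 3737, 1831 and 3255, and fitting only WT groups left 381 for FB1 in WT. Leaving out 1 array gave 386 to 839, 7976 to 9794, 2828 to 3329 and 6191 to 7854; the lowest for FB1 in WT was without WT FB1 replicate 1. Counts of the 5 genes on the called side are a description. Between genotypes without FB1, 1 of the 5 was so on each slide, against 3 in the main fit. With FB1, 0 of the 3 genes that could be compared were so on slide 2, against 1. Leaving out 1 array kept 3 and 1. It also kept 3 lower with FB1 in KO, Irx1 and Wif1 among them, where 24.6% of all genes were called lower. Nothing is read from these counts. Cnn1 turned sign with FB1 in KO on slide 2 (0.57) and between genotypes with FB1 on slide 3 (-0.0239), and Mpped2 between genotypes with FB1 with the mean of its probes (0.34), on slide 3 (0.0690) and without KO FB1 replicate 4 (0.0375, with -0.2735 the lowest value when 1 array was left out); none of these 3 differences passed the test in any setting, and the cause was not tested. On single slides, Mpped2 with FB1 in KO and Irx1 between genotypes without FB1 were not called on any slide, nor were Bcl2l15 without FB1 on slides 1 and 2, Bcl2l15 between genotypes with FB1 on slide 2 and Wif1 between genotypes without FB1 on slide 3. Irx1 between genotypes was also not called with only the 2 control groups fitted. With normexp background correction the FB1 differences in WT shrank to -0.37 for Irx1, -0.14 for Wif1, -0.56 for Mpped2, -0.90 for Cnn1 and -1.16 for Bcl2l15, with no change of direction; in KO they were -0.78 for Irx1, -1.03 for Wif1 and -0.46 for Mpped2, and between genotypes without FB1 0.34 for Irx1, 0.77 for Wif1 and 1.26 for Bcl2l15. None of the 5 genes was well above background on every array, so that filter gives no value for them. Signal close to background limits Irx1 and Wif1 most.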
